A study of Homo sapiens with 4 samples.

Results

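The 9 genes THBS1, TGFBI, TNC, SPARC, POSTN, FN1, LOX, TAGLN and ACTA2 encode matrix and contractile proteins that TGF-beta is known to induce. They were listed by name and matched to probe sets, groups of short probes that report on a transcript, through the platform annotation with current symbols. All 9 were found among the 17716 genes of the array table, each with 1 listed probe set, and 7 of them were bright enough to be tested. Expression was measured in Hs683, an established human glioma cell line. The 4 arrays carried total RNA from cells with QK (now QKI) knocked down, transduced in addition either with miR-20a (2 arrays) or with a scrambled microRNA that has no target (miR-NT, 2 arrays). The knockdown is shared by both groups, so every comparison is between cells with reduced QKI, and no array without it was analysed here. Whether replicate arrays came from separate cultures is not stated, and the p-values therefore reflect array-to-array spread that may be technical only.

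TGF-beta is a secreted factor that binds paired type I and type II receptors at the cell surface. The receptors phosphorylate SMAD2 and SMAD3, which join SMAD4, enter the nucleus and switch on genes of the extracellular matrix, of matrix cross-linking and of the contractile cytoskeleton. In gliomas the pathway is known for its part in invasion and in the mesenchymal state. MicroRNAs of the miR-17 family, to which miR-20a belongs, pair with transcripts mainly through their seed, bases 2 to 8 of the mature strand, and TGFBR2 is among their published targets.

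The mature strands below, from RefSeq (GRCh38.p14), show what the miR-20a arm shares with its family. The seed is in capitals. The labels name miR-20a without an arm, and the 5p strand is the one that carries the family seed.
hsa-miR-20a-5p: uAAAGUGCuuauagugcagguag
hsa-miR-17-5p: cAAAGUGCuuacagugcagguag
hsa-miR-20b-5p: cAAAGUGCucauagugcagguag
hsa-miR-106a-5p: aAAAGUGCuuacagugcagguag
hsa-miR-106b-5p: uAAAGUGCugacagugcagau
hsa-miR-93-5p: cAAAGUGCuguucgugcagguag
The same seed stood in 8 of 2545 mature entries, the other two being hsa-miR-519d-3p and hsa-miR-526b-3p. By position, miR-17-5p and miR-20b-5p each had the same base as miR-20a-5p at 21 of 23 positions, and miR-93-5p at 19.

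Promoter windows of RefSeq (GRCh38.p14), which run from 250 bases before to 50 bases after an annotated start, were read for the members. They were searched for CAGAC on both strands (CAGAC or GTCTG), the core of the CAGA box that SMAD3 and SMAD4 are known to bind. A window was found for 8 members, all but TAGLN. Of these, 6 members (THBS1, LOX, SPARC, TNC, POSTN and ACTA2) held a match in at least 1 window, while TGFBI and FN1 held none. Counted by window, 9 of the members' 11 windows held one, some of which overlap and share their matches, beside 45.3% of all 35116 windows. No such share was taken by gene. The full palindrome GTCTAGAC, present in 0.202% of all windows, and the CArG box, the site of serum response factor in contractile genes, present in 1.29%, had no exact match in any member's window. Near matches to the CArG box, such as ccctatatgg and ccttgtttgg in an ACTA2 window, were not counted, and TAGLN had no window. The absence of an exact match therefore does not show that the contractile members lack such sites. FN1, without a match, had a log2 fold change of −0.41, while SPARC (−0.07) held 1 match. TNC (0.18) and POSTN (0.14), too dim to be tested, also held 1 each. Whether matches go with the log2 fold changes was not tested. Shown as examples, with matches in capitals, are windows of THBS1 and LOX, the members with the lowest log2 fold changes. The window of TGFBI, whose values hardly differed between the groups, is shown beside them.
THBS1, chr15:39580829-39581128, plus strand: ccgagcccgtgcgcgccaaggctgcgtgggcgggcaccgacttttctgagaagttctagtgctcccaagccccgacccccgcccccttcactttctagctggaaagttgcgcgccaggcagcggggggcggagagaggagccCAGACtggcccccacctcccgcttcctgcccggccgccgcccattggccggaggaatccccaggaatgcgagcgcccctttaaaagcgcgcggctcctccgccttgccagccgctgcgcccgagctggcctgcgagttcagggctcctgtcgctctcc
LOX, 1 of its windows, chr5:122078210-122078509, minus strand: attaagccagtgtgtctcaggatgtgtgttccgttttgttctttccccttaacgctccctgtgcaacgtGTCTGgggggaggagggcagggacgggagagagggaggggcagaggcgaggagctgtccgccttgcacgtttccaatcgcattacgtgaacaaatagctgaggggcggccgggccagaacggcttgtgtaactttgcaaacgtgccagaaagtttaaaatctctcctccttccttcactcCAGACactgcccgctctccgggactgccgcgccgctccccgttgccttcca
TGFBI, chr5:136028738-136029037, plus strand: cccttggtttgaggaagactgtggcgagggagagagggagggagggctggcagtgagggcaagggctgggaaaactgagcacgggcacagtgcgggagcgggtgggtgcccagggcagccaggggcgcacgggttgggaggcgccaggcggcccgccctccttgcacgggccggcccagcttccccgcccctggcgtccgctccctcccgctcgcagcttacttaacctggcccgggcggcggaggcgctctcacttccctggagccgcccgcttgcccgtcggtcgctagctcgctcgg
The match of THBS1 began at −108 from the start site, and those in the LOX window shown at −181 and −1. LOX had other windows at further annotated starts, which overlapped each other and held the same 2 matches. A match describes these letters only, and a window without one says nothing of SMAD binding elsewhere.

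On the deposited log2 scale the array medians lay between 6.43 and 6.45. QKI itself measured 8.14 and 7.92 on the miR-NT arrays and 7.52 and 7.08 on the miR-20a arrays (log2 fold change −0.73, SE 0.16, limma adjusted p = 0.106). The control probe set at the 5' end of ACTB measured 12.78 and 12.66 with miR-NT against 11.59 and 10.43 with miR-20a. It responds to how intact or fully labelled the RNA was and to the level of ACTB, which were not separated here. QKI had the same order over the arrays, and with this control as a covariate its log2 fold change was −0.065. Among glial and neural markers, the astrocyte filament gene GFAP lay between 4.21 and 4.81, too dim to be tested. OLIG2, a transcription factor of oligodendrocyte precursors, lay between 4.96 and 5.18, likewise too dim. Of the same list, SOX10 (6.86 to 7.11), MBP (5.89 to 6.33) and SOX2 (5.75 to 6.05) were tested. The mesenchymal and glial filament gene VIM lay between 14.02 and 14.32. The epithelial marker EPCAM (4.08 to 4.37) and the leukocyte marker PTPRC (3.98 to 4.42) were also dim, but not all markers of other cell types were. The keratin genes KRT18 (12.54 to 12.73) and KRT8 (7.81 to 8.17), and CD3E (7.35 to 7.71) and AIF1 (7.43 to 7.71) of the immune list, were bright enough to be tested. As log2 of the sum of unlogged values, the 5 measured of 7 immune markers (3 of them dim) lay at 8.73 to 8.75 with miR-NT and 8.87 to 8.99 with miR-20a, and the 11 measured of 12 glial and neural markers (5 dim) at 14.30 to 14.35 and 14.07 to 14.23. VIM makes up most of the glial sum. Signal cannot be compared between probe sets of different genes, so such sums compare arrays and not genes. Of the 6 tested glial and neural genes, 4 had log2 fold changes above 0 (median 0.17). At an unadjusted limma p under 0.05, 2 were higher, PDGFRA (0.37) and CSPG4 (0.36), and 0 lower (5.82% and 13.2% over all tested genes). The part of these markers in the members' values was not tested. In RNA from a whole culture, fewer cells expressing a gene and less RNA of it per cell cannot be told apart.

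The members THBS1, LOX, FN1, TAGLN and ACTA2, measured 1.23- to 1.53-fold lower with miR-20a, and TGFBI and SPARC differed by 1.05-fold or less. None of the 7 tested members passed the limma test at an adjusted p under 0.05, a threshold that 0.00806% of the 12401 tested genes (1 gene) passed. At an unadjusted p under 0.05, 4 of the 7 (THBS1, LOX, FN1 and TAGLN) were lower and 0 were higher, beside 13.2% of tested genes lower and 5.82% higher. Over all 9 members, 7 log2 fold changes were below 0 and 2 above, with a median of −0.30, where the median of all 17716 genes was 0.003 and 49.5% lay below 0. The groups did not overlap in 6 members with lower values, against 27.2% of all genes, and in 2 with higher values, the dim genes TNC and POSTN, against 26.7%. SPARC alone overlapped. The members were chosen with results of these data known, so these counts describe the list and test nothing about it.

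**Figure D1:**
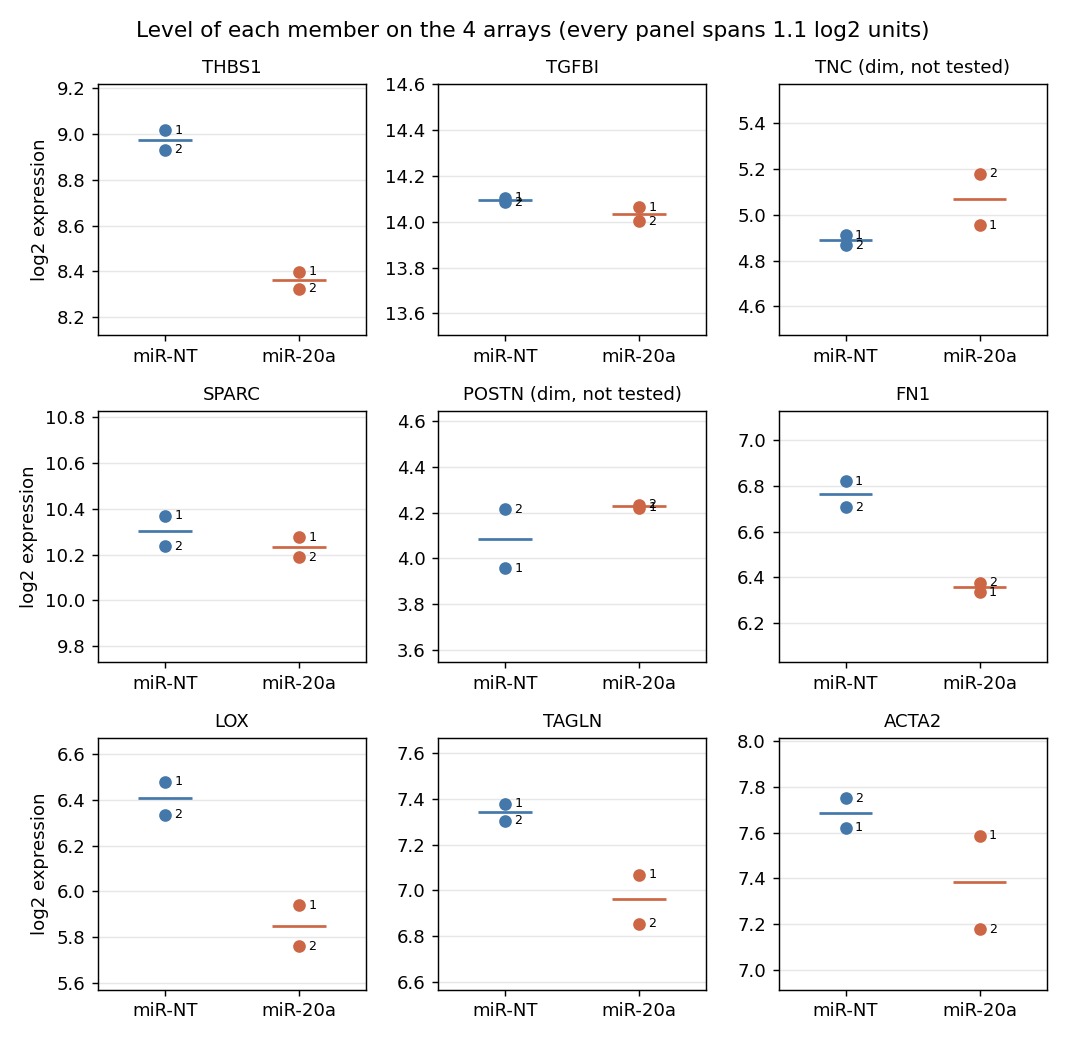
Level of each member (y axis, log2 expression) on the 4 arrays, with miR-NT in blue and miR-20a in orange; points are arrays, numbered by replicate, and lines are means of 2. In THBS1, LOX, FN1 and TAGLN both miR-20a arrays lie below both miR-NT arrays by at least 0.24, whereas the groups of SPARC overlap.

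Matricellular proteins sit in the matrix and signal to cells rather than bear load, and 5 of the members belong to this class. THBS1 (probe set 201108_s_at), thrombospondin-1, which can release TGF-beta from its latent complex, measured 9.02 and 8.93 on the miR-NT arrays and 8.40 and 8.32 on the miR-20a arrays. Both miR-20a arrays were lower, and the gap of 0.53 between the groups was several times the distance within either pair. The means were 8.97 ± 0.06 and 8.36 ± 0.05 (SD, n = 2 each), a 1.53-fold difference (log2 fold change −0.61, SE 0.10, 95% interval −0.84 to −0.38). With a limma adjusted p of 0.0812 it missed the threshold, and its p ranked 49th among the 12401 genes.

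TGFBI (201506_at), a secreted protein that binds integrins and is named for its induction by TGF-beta, measured 14.10 and 14.09 on the miR-NT arrays and 14.06 and 14.00 on the miR-20a arrays. Although the groups did not overlap, they were only 0.02 apart, and the log2 fold change was −0.06 (SE 0.10, 95% interval −0.28 to 0.16, limma adjusted p = 0.708). The interval leaves room for a fall of up to 0.28 on the log2 scale.

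SPARC (212667_at), a collagen-binding glycoprotein, measured 10.37 and 10.24 on the miR-NT arrays and 10.28 and 10.19 on the miR-20a arrays. The groups overlapped, since miR-20a replicate 1 lay above miR-NT replicate 2. The log2 fold change was −0.07 (SE 0.10, 95% interval −0.31 to 0.17, limma adjusted p = 0.688). After quantile normalization the sign of SPARC and of TGFBI turned, to 0.037 and 0.0047.

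TNC and POSTN were among the 30% of genes with the lowest means and had no test beside the others. TNC (216005_at), tenascin-C, a matrix protein of glioma and wound tissue, measured 4.91 and 4.87 on the miR-NT arrays and 4.96 and 5.18 on the miR-20a arrays, all below the mean of 5.46 of the dimmest gene tested. POSTN (1555777_at), periostin, a matrix protein of fibroblasts, measured 3.96 and 4.21 on the miR-NT arrays and 4.22 and 4.23 on the miR-20a arrays. In both genes the miR-20a arrays were the higher ones, for POSTN by only 0.0063 over miR-NT replicate 2. In the fit without a filter on dim genes, TNC had a log2 fold change of 0.18 (95% interval −0.08 to 0.43, limma adjusted p = 0.412) and POSTN one of 0.14 (95% interval −0.12 to 0.41, limma adjusted p = 0.510). These signals lie below the tested range and do not show that either gene is expressed. Each rests on 1 listed probe set, so that its transcript is absent is not shown either.

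FN1 (214701_s_at), fibronectin, forms the fibres to which cells attach through integrins and on which collagens assemble. It measured 6.82 and 6.71 on the miR-NT arrays and 6.34 and 6.38 on the miR-20a arrays, so that both miR-20a arrays were lower by at least 0.33. The means of 6.76 ± 0.08 and 6.36 ± 0.03 (SD, n = 2 each) differed 1.33-fold (log2 fold change −0.41, SE 0.10, 95% interval −0.64 to −0.18, limma adjusted p = 0.127). The table lists 1 of the probe sets a platform may hold for a gene, and which FN1 transcripts it reads was not established.

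LOX (213640_s_at), lysyl oxidase, oxidises lysines of collagen and elastin so that the fibres cross-link. It measured 6.48 and 6.33 on the miR-NT arrays and 5.94 and 5.76 on the miR-20a arrays. The groups were 0.40 apart, more than the distance within either pair. A difference of 1.47-fold (log2 fold change −0.56, SE 0.11, 95% interval −0.82 to −0.30) came with a limma adjusted p of 0.0963.

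The contractile members are cytoskeletal genes of smooth muscle and of myofibroblasts. TAGLN (205547_s_at), transgelin or SM22, an actin-binding protein, measured 7.38 and 7.30 on the miR-NT arrays and 7.07 and 6.85 on the miR-20a arrays. Both miR-20a arrays were lower, and they lay further apart than the miR-NT pair. The difference was 1.30-fold (log2 fold change −0.38, SE 0.11, 95% interval −0.64 to −0.12, limma adjusted p = 0.164).

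ACTA2 (200974_at), smooth muscle alpha-actin, the defining filament protein of myofibroblasts, measured 7.62 and 7.75 on the miR-NT arrays and 7.59 and 7.18 on the miR-20a arrays. The groups were 0.03 apart, less than the distance of 0.41 within the miR-20a pair, so the difference rested largely on replicate 2. Its log2 fold change of −0.30 (SE 0.15, 95% interval −0.64 to 0.04, limma adjusted p = 0.299) became −0.10 without miR-20a replicate 2 and −0.51 without replicate 1. Actin genes are nearly identical in their coding parts, and whether this probe set reads ACTA2 alone was not established. Other markers of smooth muscle (MYH11, DES, CNN1, SMTN and LMOD1, all 5 measured and 2 of them too dim to test) had a summed level, as log2 of the sum of unlogged values, of 8.13 to 8.18 with miR-NT and 8.22 to 8.27 with miR-20a. SMTN contributed most to this sum, and of the 3 tested, SMTN (0.17) and MYH11 (0.15) had log2 fold changes above 0 and LMOD1 (−0.08) below, none at an unadjusted limma p under 0.05. Their part in the values of TAGLN and ACTA2 was not tested.

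**Figure D2:**
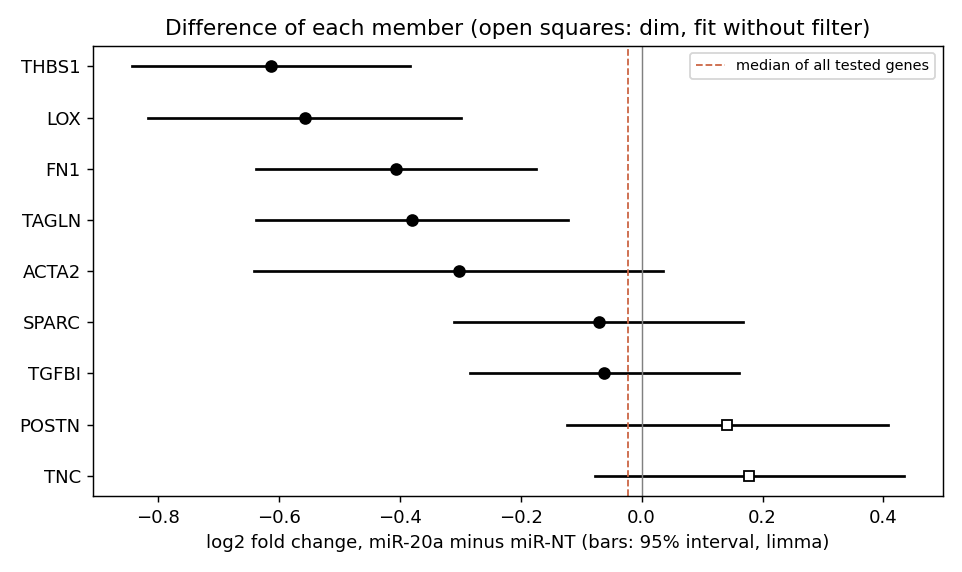
Log2 fold change of each member, miR-20a minus miR-NT (x axis), with its 95% interval from limma; filled circles are tested members, open squares the dim members in the fit without a filter, and the dashed line the median of all tested genes (−0.02). The intervals of THBS1, LOX, FN1 and TAGLN lie below 0, and those of the other members cross it.

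**Figure D3:**
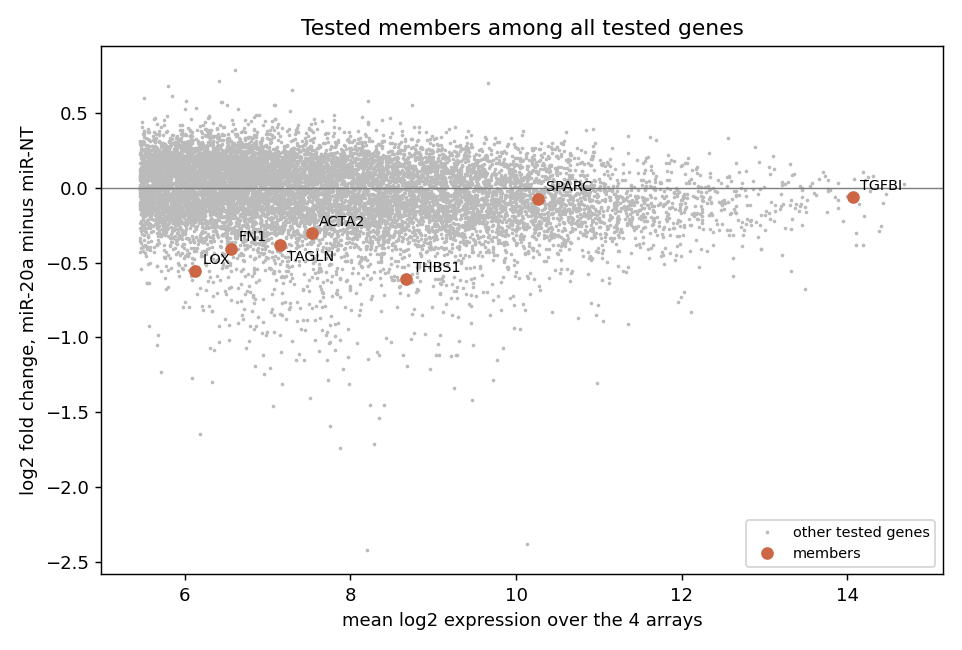
Log2 fold change, miR-20a minus miR-NT (y axis), against mean log2 expression over the 4 arrays (x axis) for the 12401 tested genes, with the 7 tested members in orange. THBS1 has the lowest fold change among the members and the 289th lowest of all tested genes.

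In rank of log2 fold change from the lowest, THBS1 was 289th, LOX 362nd, FN1 733rd, TAGLN 855th and ACTA2 1369th among the 12401 genes. SPARC, at 5167th, and TGFBI, at 5366th, lay near the middle.

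The 5' control signals moved with the groups and with some members. The ACTB 5' control ran from miR-NT replicate 1 down through miR-NT replicate 2 and miR-20a replicate 1 to miR-20a replicate 2. The GAPDH 5' control had the same order, at 13.89 and 13.81 with miR-NT against 13.17 and 12.30 with miR-20a. The values of THBS1, TGFBI, LOX and TAGLN had the same order over the 4 arrays, as did 15.1% of all genes. Within the miR-20a pair, where the control differed by −1.16 (replicate 2 minus replicate 1), ACTA2 differed by −0.41, TAGLN by −0.21, LOX by −0.18, THBS1 by −0.08 and FN1 by 0.04.

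The order of the members changed when the ACTB 5' signal entered the fit as a covariate. The SE was then 0.25 for each tested member, and no member passed, beside 0.0484% of tested genes. THBS1 was at −0.49, FN1 at −0.45 and LOX at −0.28, with limma adjusted p from 0.731 to 0.955. TAGLN came to −0.056, and ACTA2 turned to 0.28. Of these 5, FN1 and THBS1 moved least and ACTA2 and TAGLN most. The median over the 9 members was −0.056 there, and that of all genes 0.026. The covariate and the group move together over the 4 arrays. The part of signal quality, or of the ACTB level itself, in the members' values was not tested otherwise.

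Calls varied with the arrays left out. Without miR-20a replicate 1, 5 members passed in limma, THBS1, LOX, ACTA2, TAGLN and FN1 (adjusted p from 0.000708 to 0.0452), as did 15.1% of all tested genes. Without miR-20a replicate 2, THBS1 passed (log2 fold change −0.57, limma adjusted p = 0.0119), as did 2.1% of tested genes. Without miR-NT replicate 1, or without replicate 2, no member passed, and 0% of tested genes did. These fits take the spread of the single array from the other group. The median over the members ranged from −0.39 to −0.10 over them, nearest to 0 without miR-20a replicate 2.

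**Figure D4:**
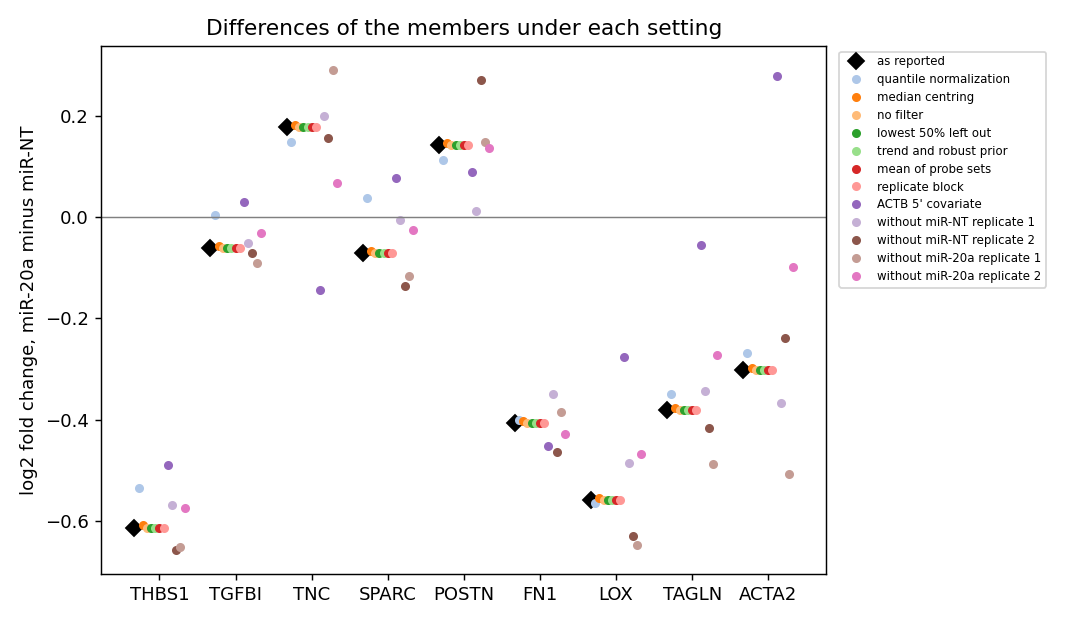
Log2 fold change, miR-20a minus miR-NT (y axis), of each member (x axis) as reported (black diamonds) and under 12 other settings (coloured points); where a setting leaves a dim member out of the test its value without the filter is drawn. THBS1, FN1 and LOX lie at or below −0.28 in every setting, whereas ACTA2 spans −0.51 to 0.28. The other filters, the trended robust prior, means of probe sets and the replicate block cannot move these values.

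Other genes of the pathway and family relatives of the members were taken from lists by role, and none of their 82 tested genes passed the limma threshold over all genes. The matrix list outside the 9 members also holds cell-surface and protease genes, among them CDH2, ITGAV, ITGB5, PLAU and PLAUR. Of its 25 tested genes, 17 had log2 fold changes below 0 and 8 above, with a median of −0.20. At an unadjusted limma p under 0.05 there were 10 lower and 3 higher (13.2% and 5.82% over all tested genes). The 4 with the smallest p were IGFBP3, which sequesters insulin-like growth factors (−1.15, SE 0.15), the basement membrane collagen chains COL4A2 (−1.08, SE 0.15) and COL4A1 (−0.71, SE 0.13), and the urokinase gene PLAU (−1.28, SE 0.26). In PLAU the miR-20a arrays were 0.95 apart, and with the ACTB 5' covariate its value turned to 0.11. That covariate brought IGFBP3 to −0.54, COL4A2 to −0.51 and COL4A1 to −0.18. The 3 higher genes were COL1A1 (0.33, SE 0.11), ITGB5 (0.33, SE 0.11) and CTHRC1 (0.31, SE 0.11). With the covariate they were at 0.23, 0.22 and 0.10. CCN2, connective tissue growth factor and a much-used readout of TGF-beta and YAP signalling, overlapped between the groups at 10.89 and 10.67 against 10.72 and 10.11.

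Contractile genes outside the members were also below 0 in 17 of 25, with a median of −0.19, 9 lower and 0 higher at an unadjusted limma p under 0.05 (13.2% and 5.82% over all tested genes). First by p were the integrin linker talin, TLN1 (−0.72, SE 0.11), TAGLN2, a homologue of TAGLN (−0.93, SE 0.19), tropomyosin TPM1 (−0.85, SE 0.24) and caldesmon CALD1 (−0.48, SE 0.14). With the ACTB 5' covariate TPM1 stood at 0.42, TAGLN2 at −0.10, TLN1 at −0.37 and CALD1 at −0.61. MYL9, the regulatory myosin light chain of smooth muscle, measured 7.52 and 7.42 against 7.69 and 7.39, with overlapping groups.

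Relatives of the members by family had a median of −0.02 over 11 tested genes, 7 below 0 and 4 above, with 2 lower and 0 higher at an unadjusted limma p under 0.05, a share near the 13.2% lower over all tested genes. These were the lysyl oxidase homologues LOXL2 (−0.45, SE 0.11) and LOXL1 (−0.37, SE 0.14), whereas LOXL4 was at 0.18 and LOXL3 at 0.06. With the ACTB 5' covariate LOXL2 was at −0.27 and LOXL1 turned to 0.14. THBS2, the nearest homologue of THBS1, was at −0.05 (SE 0.09). The tenascin TNR was at 0.24 (SE 0.13).

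The list of immediate feedback genes of TGF-beta signalling also holds transcription factors such as ID1, ID3, SNAI1 and JUNB. It had a median of 0.002 over 13 tested genes, 5 below 0 and 8 above. At an unadjusted limma p under 0.05, 3 were lower and 1 higher (13.2% and 5.82% over all tested genes). The inhibitory SMAD7, which switches the receptors off and is a rapid target of the pathway, measured 8.17 and 8.19 on the miR-NT arrays and 8.25 and 8.11 on the miR-20a arrays, with overlapping groups. First by p were BHLHE40 (−0.34), the corepressor TGIF1 (−0.37), ID1 (−0.42) and the inhibitory SMAD6 (0.27). With the ACTB 5' covariate ID1 turned to 0.18, whereas BHLHE40 was at −0.37, TGIF1 at −0.36 and SMAD6 at 0.37. Ligands, receptors and SMADs were below 0 in all 8 tested genes with a median of −0.23, beside 53.8% of all tested genes below 0. The 3 left out as dim, TGFB3 (0.17), TGFBR1 (0.12) and TGFBR3 (0.05), lay above 0 in the fit without a filter. SMAD3 was at −0.89 (SE 0.17), SMAD4 at −0.51 (SE 0.14), TGFB1 at −0.47 (SE 0.12) and TGFB2 at −0.27 (SE 0.11). TGFBR2 overlapped between the groups (8.83 and 8.62 against 8.69 and 8.50). With the ACTB 5' covariate SMAD3 was at −0.09 and TGFB1 at −0.14, and SMAD4 and TGFB2 turned to 0.07 and 0.05.

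**Figure D5:**
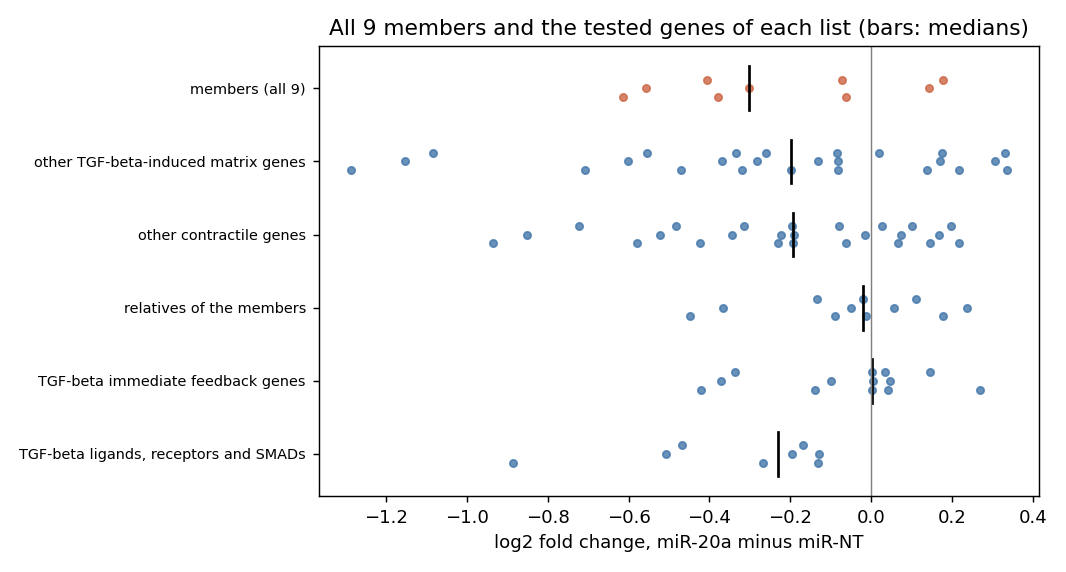
Log2 fold change, miR-20a minus miR-NT (x axis), of all 9 members (orange) and of the tested genes of 5 lists of the pathway (blue), 1 point per gene, with bars at the medians. The members' median is −0.30, those of the matrix and contractile lists −0.20 and −0.19, and that of the feedback list 0.002.

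For each tested member, the 3 other tested genes with the most similar profile were found, by the Euclidean distance of the 4 array values after each gene's mean was removed. For THBS1 they were the ubiquitin-activating enzyme UBA6 (distance 0.026), the chaperone of the endoplasmic reticulum CALR (0.067) and FKBP5, a cochaperone of steroid receptors (0.068), and 17 genes lay within 0.1. For LOX they were MAPKAP1, a subunit of the mTORC2 kinase (0.0062), SLC2A4RG (0.022) and again CALR (0.041). FN1 had the cytokine gene IL7 (0.0068), the cysteine desulfurase NFS1 (0.031) and the histone gene H2BC6 (0.040). TAGLN had SNX4 (0.024), TOP3B (0.025) and SZRD1 (0.026), and ACTA2 had PHAX (0.026), TRIM56 (0.041) and SMARCD1 (0.050). TGFBI, with SMIM3, E2F1 and PPT1 nearest, had 1198 genes within 0.1, and SPARC, with ATIC, ACO1 and FAM89B, had 1133. With 4 arrays such likeness is a description, and a member with a small difference has many genes like it.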

How the data were processed

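Total RNA was measured on 4 Affymetrix arrays, per the labels' protocols. The authors deposited a table with 1 value for each of 20323 probe sets on each array, taken as log2 expression because of the range. The R package affy is named in the submitters' processing notes. How background was corrected, arrays normalized and probe sets summarised and chosen is, like the genome build, not given in the sources used here. Signal cannot be compared between probe sets of different genes, and only 4 arrays limit the precision.

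Arrays were grouped by source name. Of the probe sets, 18060 had 1 gene symbol, updated through RefSeq identifiers (18036 matched, controls included). Per gene the probe set with the highest mean was used, and the 30% of genes with the lowest mean over all arrays (5315) were left out. limma 3.58.1 in R 4.3.3 (lmFit, eBayes, two-sided, no covariate) tested 12401 genes, with Benjamini-Hochberg adjustment over all of them. Its fit had 2 residual and 5.53 prior degrees of freedom. The smallest p of an exact permutation test of 2 against 2 arrays is 0.333, so such a test was left out. The fit was also run on simulated data drawn without effects shared by an array, and no result here rests on it.

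The members and lists were chosen with earlier results of these data known. Genes named are the 9 members, the 4 with the smallest p of the matrix, contractile and relatives lists (done likewise, beyond the rule, for the feedback and the ligand, receptor and SMAD lists), the 3 nearest profiles of each tested member, and QKI and TGFBR2. CCN2, COL1A1, ITGB5, CTHRC1, MYL9, SMAD7, THBS2, LOXL3 and the marker genes were named besides, after their values were seen. Alternatives were quantile normalization, median centring, 2 other filters, a trended robust prior, means of probe sets, the replicate number as a block, the ACTB 5' covariate and leaving out each array.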

Additional observations from a re-analysis of the deposited data

How the results depend on the processing

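No tested member passed the limma threshold under any of the 8 settings that kept all arrays. TNC and POSTN were tested only in the one without a filter, and LOX was not tested with the lowest 50% left out. With 1 array left out, 0 to 5 passed. The median over the members was −0.30 as reported, −0.056 with the ACTB 5' covariate, and −0.39 to −0.10 with 1 array left out. Signs turned with the ACTB 5' covariate for ACTA2 (0.28), SPARC (0.078), TGFBI (0.030) and TNC (−0.14), and after quantile normalization for SPARC (0.037) and TGFBI (0.0047). THBS1, LOX, FN1, TAGLN and POSTN kept their sign in every setting. By design, the 2 other filters, the trended robust prior, means of probe sets and the replicate block could not change these log2 fold changes. Median centring moved all genes by the same small amount. With the replicate number as a block, THBS1, LOX, FN1 and TAGLN had limma adjusted p of 0.139 to 0.140, and the count over all genes went from 1 to 0. Between the groups, the differences of replicate 1 minus replicate 2 had an r of 0.240 across genes, and with 2 pairs the numbers were not taken to pair the arrays. The count over all genes was also 5 after quantile normalization, 47 after median centring, 4 with the lowest 50% left out, 24 with a trended robust prior, 6 with the covariate and 0 to 1869 with 1 array left out. Of the pathway lists' genes, 2 passed after median centring, 2 with the trended robust prior and 0 to 28 with 1 array left out. The cause of these changes was not tested. Signal near background limits TNC and POSTN.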
